A study of Mus musculus with 6 samples.

Results

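The endoplasmic reticulum (ER) folding and secretion genes described here are 48 genes of the ER: those that target new proteins to it, carry them across its membrane, fold them, destroy misfolded ones and signal ER stress. They were taken by symbol from a fixed list, and all 48 were found among the 39527 genes of the authors' deposited table. All 48 carried an adjusted p, so none was lost to a filter on low values, among 14961 genes that did. RNA was sequenced from group 2 innate lymphoid cells (ILC2s), tissue lymphocytes of type 2 immunity, sorted from mouse lung. The 2 groups were R5/+ mice (WT, 3 samples) and R5/+LKB1f/f mice (KO, 3 samples), and each sample pooled 3 to 4 mice. Both groups carried the R5 allele and both were challenged with the alarmin IL-33 for 4 days, so that no unchallenged group enters the comparison. LKB1, encoded by Stk11, is a kinase that activates AMPK. The labels do not say which allele deletes the floxed gene or in which cells, and the sources used here give no age or sex of the animals.

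Proteins bound for the cell surface or for secretion, cytokines among them, are recognised by the signal recognition particle as they leave the ribosome, enter the ER through the Sec61 channel and lose their signal peptide to the signal peptidase. Inside, chaperones and disulfide isomerases fold them, and proteins that fail are sent back to the cytosol for degradation (ERAD). When folding falls behind, the sensors IRE1 (Ern1), ATF6 and PERK (Eif2ak3) start the unfolded protein response. In it XBP1 and ATF6 raise chaperone genes, and PERK slows translation and, through ATF4 and CHOP, drives stress genes.

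The values are the authors' own comparison, with 1 log2 fold change and 1 standard error (SE) per gene. The per-sample columns of the table carry codes that match no sample label, so that neither values by sample nor sequencing depth are given. No source used here states which genotype is the numerator, and signs are given as deposited. Stk11 itself, the floxed gene, had -1.34 ± 0.30 (SE) at a mean of 652.3 normalized counts in the authors' deposited table (Benjamini-Hochberg adjusted p = 0.000103, as are all adjusted p values here). A negative sign below is thus the sign of Stk11. The numerator is the same for all genes, and it would be KO if Stk11 RNA was lower in the KO samples. That could not be checked by sample. A gene is counted as negative or positive where its adjusted p was below 0.05. Of 14 ILC2 markers, 3 were negative and 3 positive. The lineage factor Gata3 was the most abundant, with a mean of 44552 normalized counts and 0.63 ± 0.16, and Kit had the smallest p, at 1.53 ± 0.16, in the authors' deposited table. The negative markers were Klrg1 (-0.44 ± 0.12), the cytokine Il13 (-1.06 ± 0.18) and Thy1 (-1.98 ± 0.75), and the last 2 were the scarcest of the list, with means of 618.6 and 291.2 in the authors' deposited table. With the length and GC trends described below taken out, 1 of the 14 was negative (Il13) and 5 were positive. Klrg1 (-0.18, adjusted p = 0.301) and Thy1 (-1.85, adjusted p = 0.0572) then lost their calls, on the authors' deposited SE. In sorted pools, fewer cells of a type and less RNA per cell cannot be told apart.

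Of the 48 genes, 18 were negative, 3 positive and 27 not called, and 36 lay below 0. The negative calls lay in the chaperones (5 of 11) and in the genes of targeting, translocation and signal peptide cleavage (10 of 17), with 1 each in the other roles. Over all genes with an adjusted p in the authors' deposited table, 24.5% were called, 13.5% negative and 11.0% positive, against 43.8% called, 37.5% negative and 6.25% positive of the members. The median log2 fold change was -0.29 over the members and -0.0056 over all tested genes. Members are abundant, and their median SE of 0.15 was below that of all tested genes, 0.233, which by itself makes calls more frequent. Among genes with a mean of at least 1000 normalized counts, 39.8% were called, 23.4% negative and 16.3% positive. The 38 members above that level had 16 negative (42.1%) and 2 positive (5.26%), with a median of -0.30 against -0.038 for all genes above it. Fold changes also followed transcript length, as described below. With the trends on length and GC content taken out and the test recomputed from the authors' deposited SE, 11 members were negative and 4 positive, and their median was -0.22. In that comparison 22.3% of all protein-coding genes were called, 11.1% negative and 11.2% positive.

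**Figure D1:**
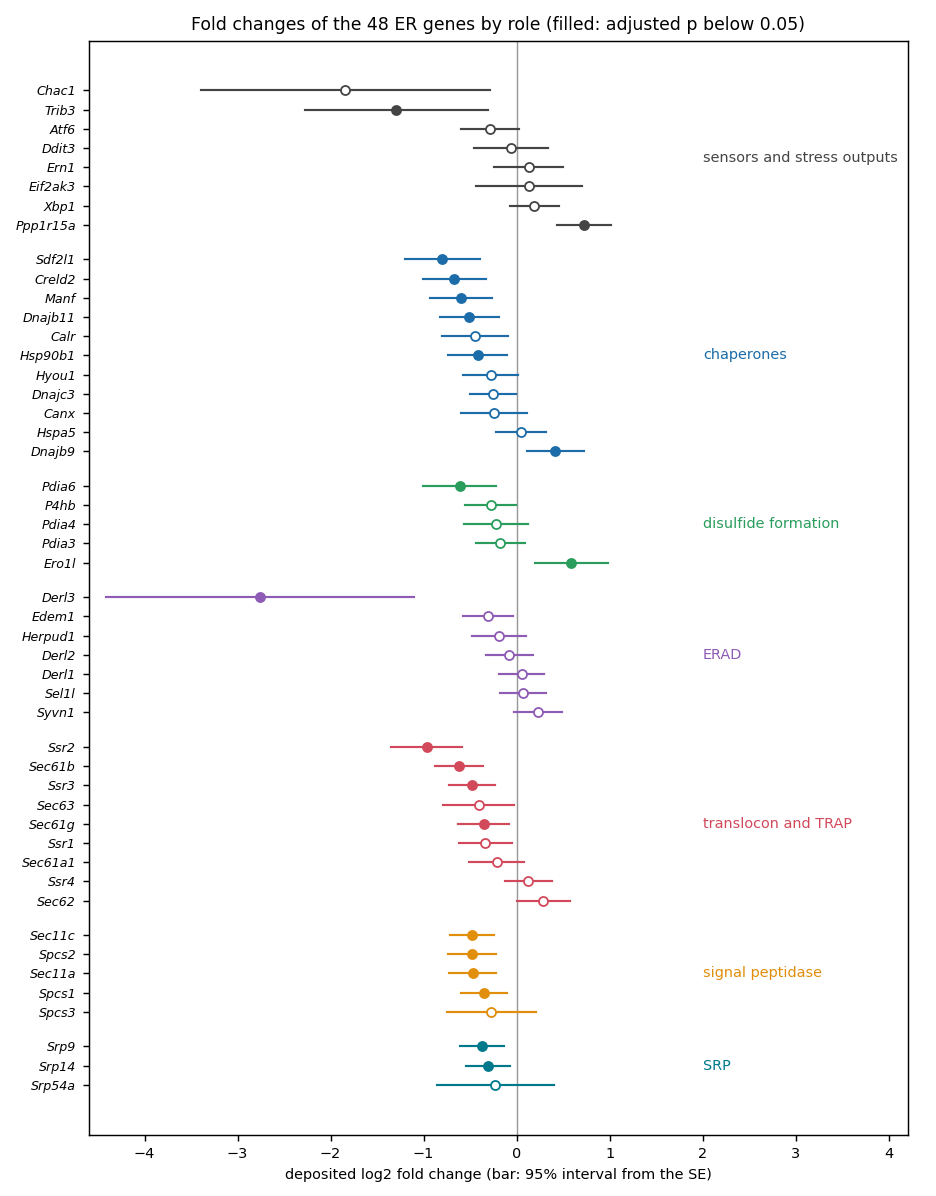
Deposited log2 fold change of each of the 48 genes (horizontal axis) with its 95% interval from the SE, grouped by role; filled points passed an adjusted p of 0.05. All signal peptidase and signal recognition particle genes lie below 0, and Ppp1r15a, Dnajb9 and Ero1l are the 3 filled points above it.

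The chaperone promoters are shown first because they carry the known element of the unfolded protein response. The ER stress element (ERSE), the letters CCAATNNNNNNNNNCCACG on either strand, is bound by NF-Y at its first part and by ATF6 or XBP1 at its last. In the RefSeq promoter table (GRCm38.p6, which is mm10; from 250 bases before to 50 after each start site) 40 of the 48 members were matched. The element was found in 9 of them (22.5%), against 37 of 27025 genes in the whole table (0.137%). Each is printed 5′ to 3′ on the gene's own strand, with the match in capitals, and a match that begins CGTGG is the element on the other strand. The members were listed for their ER function, and the share above describes them without a test.

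The chaperones and folding enzymes among them, from the least to the most negative fold change, are Hspa5 (chr2:34772020-34772048, + strand), Canx (chr11:50325775-50325843, - strand), Dnajc3 (chr14:118937802-118937870, + strand), Hsp90b1 (chr10:86705613-86705681, - strand), Calr (chr8:84847050-84847118, - strand), Pdia6 (chr12:17266466-17266534, + strand) and Creld2 (chr15:88819495-88819563, + strand). The Hspa5 window is shorter since it lies in an exon of GENCODE M21.
Hspa5: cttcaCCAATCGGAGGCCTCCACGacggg
Canx: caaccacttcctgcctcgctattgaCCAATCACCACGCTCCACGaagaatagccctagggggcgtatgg
Dnajc3: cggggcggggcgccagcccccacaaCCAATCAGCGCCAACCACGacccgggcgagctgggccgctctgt
Hsp90b1: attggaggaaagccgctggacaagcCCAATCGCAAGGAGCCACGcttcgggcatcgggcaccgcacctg
Calr: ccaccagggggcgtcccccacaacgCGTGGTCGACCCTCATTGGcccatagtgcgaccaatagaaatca
Pdia6: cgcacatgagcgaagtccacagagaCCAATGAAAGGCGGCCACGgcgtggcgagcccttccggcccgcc
Creld2: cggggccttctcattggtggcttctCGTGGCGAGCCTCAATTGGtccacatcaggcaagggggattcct

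The ERAD genes with the element are Derl3 (chr10:75893217-75893285, + strand) and Syvn1 (chr19:6046507-6046575, + strand). Herpud1 (chr8:94386352-94386412, + strand) holds the related ERSE-II, the letters ATTGGNCCACG.
Derl3: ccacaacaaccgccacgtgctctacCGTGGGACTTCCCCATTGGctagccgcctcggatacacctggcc
Syvn1: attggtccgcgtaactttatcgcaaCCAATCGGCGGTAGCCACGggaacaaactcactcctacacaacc
Herpud1: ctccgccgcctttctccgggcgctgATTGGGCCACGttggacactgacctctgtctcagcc

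Hsp90b1 holds a second ERSE, whose first base lies 107 bases before the start site, and Dnajb11 holds an ERSE-II just after its start site. ERSE-II was found in 12 of the 27025 genes (0.0444%) and in 2 of the 40 members (5%). Of the 11 members with either element, 5 were negative (Derl3, Creld2, Pdia6, Dnajb11 and Hsp90b1), 0 positive and 6 not called, with a median of -0.42. Of the 29 with neither, 10 were negative and 3 positive, with a median of -0.28. Of all tested genes, 13.5% were negative and 11.0% positive. Atf6, Derl1, Hyou1, Manf, Sec11c, Sec61a1, Spcs3 and Ssr2 were not matched to a promoter and are in neither group. Among these, Manf, Sec11c and Ssr2 were negative. The 11 members with either element thus had values from -2.76 to 0.23 in the authors' deposited table. With the length and GC trends taken out, 3 of the 11 were negative and 0 positive, and 5 of the 29 negative and 4 positive. Of all protein-coding genes, 11.1% were then negative and 11.2% positive. The median over the 9 members with an ERSE was -0.42. Another 10 tested genes that are no members hold an ERSE, of which 1 was negative and 3 positive, with a median of 0.22. In the authors' deposited table, the negative one was Hnrnpa3 (-0.69) and the positive ones Xlr3a (1.91), Xlr3b (1.26) and Pan2 (0.59). Not called were Ero1lb (0.09), Alg12 (-0.09), Acacb (-0.006), Spats2l (-0.18), Adcy3 (0.36) and Tdrd9 (1.09 at a mean of 13.3) in the authors' deposited table. The XBP1 site core TGACGTGG and the ATF4 element TGATGNAAT, on either strand, were in 0 of the 40 members and in 0.714% and 1.08% of all genes. The letters CCACG alone, which also lie within both elements, were in 29 of 40 members (72.5%) and in 35.5% of all genes. No match says only that these letters are not in this window.

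**Figure D2:**
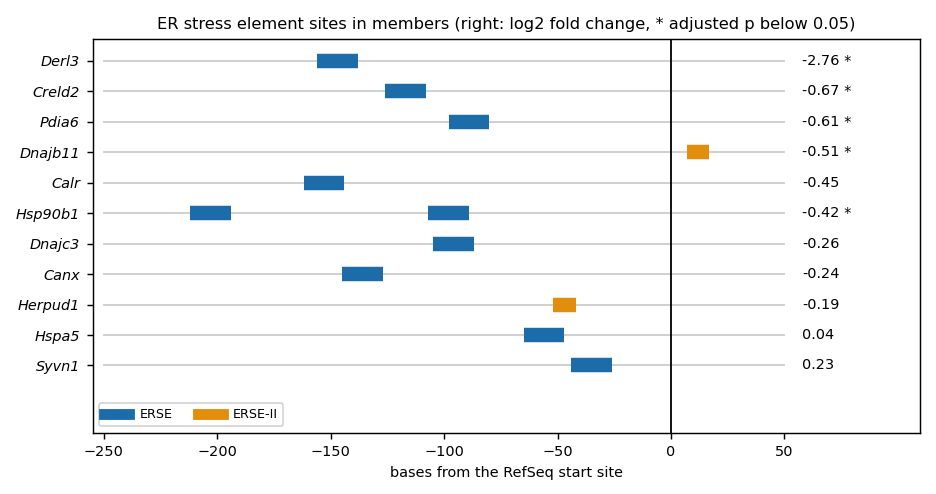
Position of each ERSE (blue) and ERSE-II (orange) in bases from the RefSeq start site for the 11 members that hold one, with the deposited log2 fold change at the right and an asterisk for an adjusted p below 0.05. Members with the element run from -2.76 (Derl3) to 0.23 (Syvn1).

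None of the stress sensors, nor Xbp1, passed as deposited. Ern1, the IRE1 kinase and nuclease that splices Xbp1 mRNA, had 0.13 ± 0.19 (SE), and Eif2ak3, which encodes PERK, 0.13 ± 0.29 in the authors' deposited table. Atf6 had -0.29 ± 0.16 and Xbp1 itself 0.19 ± 0.14 in the authors' deposited table, and none of the 4 had an unadjusted p below 0.05. Their 95% intervals reached from -0.24 to 0.50 for Ern1, from -0.44 to 0.70 for Eif2ak3, from -0.60 to 0.02 for Atf6 and from -0.08 to 0.46 for Xbp1, so that a 2-fold difference lies outside each. With the length and GC trends taken out, Atf6 was negative at -0.41 (adjusted p = 0.0434 from the authors' deposited SE), and the other 3 were not called. These are levels of mRNA, and neither the splicing of Xbp1 nor the cleavage of ATF6 or phosphorylation of PERK was measured. Ern1, at a mean of 7809 normalized counts, lay above 97.6% of tested genes, whereas Eif2ak3 had a mean of 120.8 in the authors' deposited table.

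The outputs of the PERK branch went both ways. Ppp1r15a (chromosome 7, 45522916 to 45526268 in mm10) encodes GADD34, the phosphatase subunit that restores translation after PERK has slowed it, and is also induced rapidly by other stresses. It had 0.72 ± 0.15 (SE) in the authors' deposited table, a ratio of 1.65 (95% interval of the log2 value 0.43 to 1.02, adjusted p = 3.01e-05). It was the largest positive value among the members and lay above 99.6% of tested genes by mean count, 26959. Trib3, a pseudokinase induced by ATF4 and CHOP, had -1.29 ± 0.50 (adjusted p = 0.0416), and Chac1, a glutathione-degrading enzyme of the same branch, -1.84 ± 0.79 without passing (adjusted p = 0.0726) in the authors' deposited table. Both were scarce, with means of 43.3 and 26.4 normalized counts, and their errors were accordingly wide. Ddit3, which encodes CHOP, had -0.06 ± 0.20 in the authors' deposited table. Its exons overlap those of Mars on the other strand, which had a mean count 446% of that of Ddit3, and without a statement on strand the reads of the pair cannot be told apart. Atf4, which is no member, had -0.04 ± 0.13 in the authors' deposited table.

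Immediate early and heat shock genes, which respond to the handling of cells among other stimuli, were measured beside Ppp1r15a. Of 11 on the list, 8 were positive and 0 negative, with a median of 0.79, beside 11.0% positive and 13.5% negative of all tested genes. Jun had 1.45 ± 0.16 and Junb, the most abundant, 0.48 ± 0.20 without passing in the authors' deposited table. Their part in the value of Ppp1r15a was not tested.

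Luminal chaperones and their cofactors were negative in 5 and positive in 1 of 11, and 9 lay below 0 with a median of -0.42. Hspa5, which encodes BiP, the master chaperone of the ER, was the most abundant member of all at a mean of 39453 normalized counts and had 0.04 ± 0.14 (SE; 95% interval -0.23 to 0.31) in the authors' deposited table. The 5 with a negative call were Sdf2l1, Creld2, Manf, Dnajb11 and Hsp90b1. Sdf2l1 (chromosome 16, 17130138 to 17132383), a component of the BiP chaperone cycle, had -0.80 ± 0.21 in the authors' deposited table, a ratio of 0.575 (adjusted p = 0.00109). Creld2 (-0.67 ± 0.17), a disulfide isomerase-like secreted factor, and Manf (-0.60 ± 0.17), a luminal stress-induced protein, passed at adjusted p = 0.000948 and 0.00351 in the authors' deposited table. Manf overlaps Vprbp on the other strand, whose mean count was 62.4% of its own.

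Dnajb11, the J-protein ERdj3 that hands substrates to BiP, had -0.51 ± 0.16 (adjusted p = 0.0102) in the authors' deposited table. Hsp90b1, the ER HSP90 paralog GRP94 that folds integrins and Toll-like receptors, had -0.42 ± 0.16 per the authors' deposited table (adjusted p = 0.0386). Against these, Dnajb9, the J-protein ERdj4 that binds and represses IRE1, was positive at 0.41 ± 0.16 in the authors' deposited table (adjusted p = 0.0365). The pair of J-proteins thus had opposite signs, each past the threshold and with intervals that do not meet (-0.82 to -0.19 for Dnajb11 and 0.11 to 0.72 for Dnajb9). The lectin chaperones of glycoproteins, Calr (-0.45 ± 0.18) and Canx (-0.24 ± 0.18), and the nucleotide exchange factor Hyou1 (-0.28 ± 0.15) did not pass per the authors' deposited table. Dnajc3, a J-protein that also inhibits PERK, had -0.26 ± 0.13 without passing per the authors' deposited table.

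**Figure D3:**
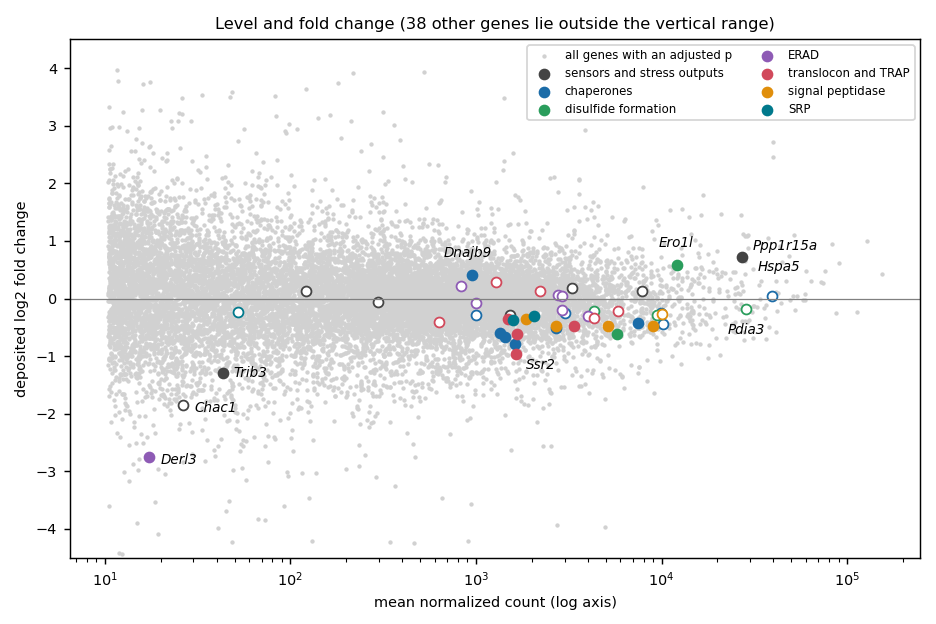
Mean normalized count (horizontal, log axis) against deposited log2 fold change for all genes with an adjusted p (grey) and the 48 members by role, filled where the adjusted p was below 0.05. The members of largest negative value, Derl3, Chac1 and Trib3, are scarce, while Hspa5 and Pdia3 lie near 0 at high counts.

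Disulfide formation showed opposite signs for the oxidase and 1 isomerase. Ero1l (chromosome 14, 45283087 to 45318771) encodes the oxidase that passes electrons from the isomerases to oxygen. It had 0.59 ± 0.20 (SE) in the authors' deposited table, a ratio of 1.5 (adjusted p = 0.0175). Pdia6, an isomerase that also attenuates IRE1, had -0.61 ± 0.20 (adjusted p = 0.0130) in the authors' deposited table, and -0.50 (adjusted p = 0.0557) once the length trend described below was taken out. The isomerases P4hb (-0.28 ± 0.14), Pdia4 (-0.22 ± 0.18) and Pdia3 (-0.18 ± 0.13) were below 0 without passing per the authors' deposited table. Per kilobase of its longest coding transcript, Pdia3 had a mean of 10280 normalized counts, close to Hspa5 at 10744, and P4hb 3281.

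ERAD was called in 1 of 7 members. Sel1l and Syvn1, which form the HRD1 ubiquitin ligase, had 0.07 ± 0.13 (SE) and 0.23 ± 0.13 in the authors' deposited table. Derl1 (0.05 ± 0.12), Derl2 (-0.08 ± 0.13) and the stress-induced Herpud1 (-0.19 ± 0.15) did not pass either per the authors' deposited table. Edem1, which extracts glycoproteins from the folding cycle, had -0.31 ± 0.14 and missed the threshold (adjusted p = 0.0788) in the authors' deposited table. Syvn1 and Derl2 overlap Mrpl49 and Mis12 on the other strand, with mean counts 61.6% and 59.8% of theirs. The exception was Derl3 (chromosome 10, 75893413 to 75895941), the derlin of professional secretory cells, at -2.76 ± 0.84 in the authors' deposited table (adjusted p = 0.00733). It was the largest fold change of any member and the scarcest, with a mean of 17.4 normalized counts.

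Derl3 is known for its expression in plasma cells, and markers of B and plasma cells had the same sign. Of 14 such markers 12 had an adjusted p, of which 6 were negative and 1 positive, 11 lay below 0, and the median was -1.10. No marker of the list had a mean of 0, and their summed means came to 18521 normalized counts. Igkc had -3.97 ± 1.21 (SE) at a mean of 4939, Jchain -3.57 ± 1.37 at 939.2 and Ighm -1.56 ± 0.53 at 6265 in the authors' deposited table. Cd79b, of the B cell receptor, had the smallest p of the list, at -0.88 ± 0.23 in the authors' deposited table. Prdm1, the plasma cell factor that activated lymphocytes also express, was the positive one at 0.57 ± 0.20 in the authors' deposited table. Of the other ER genes, the plasma cell chaperone Mzb1 (-3.85 ± 1.28) and the isomerase Fkbp11 (-2.36 ± 0.89) were likewise scarce and negative in the authors' deposited table. With the length and GC trends taken out, Jchain (-3.31, adjusted p = 0.0639) and Fkbp11 (-2.01, adjusted p = 0.0859) lost their calls, on the authors' deposited SE. Mzb1 kept its call at -3.53 (adjusted p = 0.0305 from the authors' deposited SE). Of the B and plasma cell markers, 3 were then negative and 1 positive, but Igkc and Ighm had no coding transcript length and did not enter. Markers of macrophages, monocytes and dendritic cells were negative in 3 of 13, with the antigen presentation genes Cd74 at -0.99 ± 0.21 and H2-Ab1 at -1.74 ± 0.22 per the authors' deposited table. The third was C1qa, at -2.63 ± 0.78 and a mean of 38.8 in the authors' deposited table. The other 10 were not called, among them Lyz2 (-0.75 ± 0.80), Csf1r (-0.01 ± 1.13), Adgre1 (0.04 ± 1.16) and Itgax (0.21 ± 1.34) per the authors' deposited table. Those of T cells were negative in 2 of 8 tested, Trat1 at -2.65 ± 0.35 and Cd3g at -0.66 ± 0.19 per the authors' deposited table. Cd3g lost its call with the trends taken out (-0.31, adjusted p = 0.249 from the authors' deposited SE). The most abundant, Trbc2, had -0.18 ± 0.14 without passing, and 2 lay above 0, Cd3e (0.08 ± 0.64) and Cd4 (0.37 ± 0.94), per the authors' deposited table. Of 8 tested epithelial markers 0 were called and 1 had an unadjusted p below 0.05, Krt8 at -2.19 ± 1.02, and Sftpc, the most abundant, had -1.18 ± 0.84 per the authors' deposited table. The part of such cells in the value of Derl3, or of any other member, was not tested.

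Genes that deliver proteins to the ER and across its membrane showed 10 negative and 0 positive calls among 17, with a median of -0.35. In the Sec61 channel, the small subunits Sec61b (-0.62 ± 0.13, adjusted p = 4.85e-05) and Sec61g (-0.35 ± 0.14, adjusted p = 0.0459) were negative in the authors' deposited table, whereas the pore subunit Sec61a1 had -0.22 ± 0.15 and did not pass. Sec62 and Sec63, which assist proteins that enter after translation, had 0.29 ± 0.14 and -0.41 ± 0.19 without passing in the authors' deposited table. The 4 subunits of the translocon-associated protein complex TRAP, which helps signal peptides open the channel, did not share a value. Ssr2 (chromosome 3, 88575876 to 88588419) had -0.97 ± 0.19 (SE), a ratio of 0.511, per the authors' deposited table (adjusted p = 1.14e-05). Ssr3 was negative at -0.48 ± 0.13 (adjusted p = 0.00165), while Ssr1 (-0.34 ± 0.15) and Ssr4 (0.12 ± 0.13) did not pass per the authors' deposited table. The interval of Ssr2, -1.35 to -0.59, does not meet that of Ssr4, -0.13 to 0.38.

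The signal peptidase was negative in 4 of 5 members, all within a narrow range. The catalytic subunits Sec11a and Sec11c had -0.47 ± 0.13 (SE) and -0.48 ± 0.12 in the authors' deposited table (adjusted p = 0.00219 and 0.000930). The accessory subunits Spcs2 (-0.48 ± 0.13, adjusted p = 0.00242) and Spcs1 (-0.35 ± 0.13, adjusted p = 0.0288) were negative too, and Spcs3 (-0.27 ± 0.24) did not pass per the authors' deposited table. Sec11c had the highest level of the complex per kilobase of transcript, 6001 normalized counts against 1846 for Spcs1. Of the signal recognition particle, Srp9 (-0.37 ± 0.12, adjusted p = 0.0131) and Srp14 (-0.31 ± 0.12, adjusted p = 0.0472), which together arrest the ribosome, were negative in the authors' deposited table. Srp54a (-0.23 ± 0.32 at a mean of 52.0), the signal peptide binding subunit, has near-identical copies that can share its reads, so that its value is uncertain. Its copy Srp54b, whose identifier is Srp54c in GENCODE M21, had -0.17 ± 0.13 at a mean of 780.5 in the authors' deposited table.

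Many of these targeting and cleavage genes are short, and fold changes followed transcript length across the whole table. Spearman's rho between the length of the longest coding transcript and the deposited log2 fold change was 0.269 over 12979 protein-coding genes and 0.440 over the 48 members, as descriptions over genes of the same libraries. The median fold change was -0.24 in the shortest 25% of protein-coding genes, which held 16 members, and 0.17 in the longest 25%, which held 7. The 24 shorter members (564 to 2770 bases) had 15 negative and 1 positive call, and the 24 longer ones (2809 to 9333 bases) 3 negative and 2 positive.

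With the length and GC trends taken out, 11 of the 21 called members kept their call, 10 lost it and 4 others gained one. Negative calls in the signal peptidase fell from 4 to 1 (Spcs2) and in the signal recognition particle from 2 to 0, where Srp14 turned to 0.05 (adjusted p = 0.823 from the authors' deposited SE). With the authors' deposited SE, Sec61b became -0.22 (adjusted p = 0.232) and Sec11c -0.13 (adjusted p = 0.486). Spcs1 (-0.05), Srp9 (-0.08), Sec61g (-0.16), Sec11a (-0.21), Hsp90b1 (-0.31) and Pdia6 (-0.50) also lost their calls. Trib3 lost its call at nearly the same value, -1.25 in place of -1.29 (adjusted p = 0.0547 from the authors' deposited SE). The chaperone group had 4 negative calls (Sdf2l1, Manf, Creld2 and Dnajb11) in place of 5, and Ssr2 (-0.73, adjusted p = 0.00172 from the authors' deposited SE), Ssr3, Spcs2 and Derl3 remained. The long members Ssr1 (-0.52, adjusted p = 0.00325), Edem1 (-0.38, adjusted p = 0.0258) and Atf6 (-0.41, adjusted p = 0.0434), became negative on the same use of the authors' deposited SE, and the short Ssr4 became positive at 0.45 (adjusted p = 0.00446). Ppp1r15a, Ero1l and Dnajb9 stayed positive at 0.74, 0.57 and 0.53. The origin of the length trend was not tested.

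**Figure D4:**
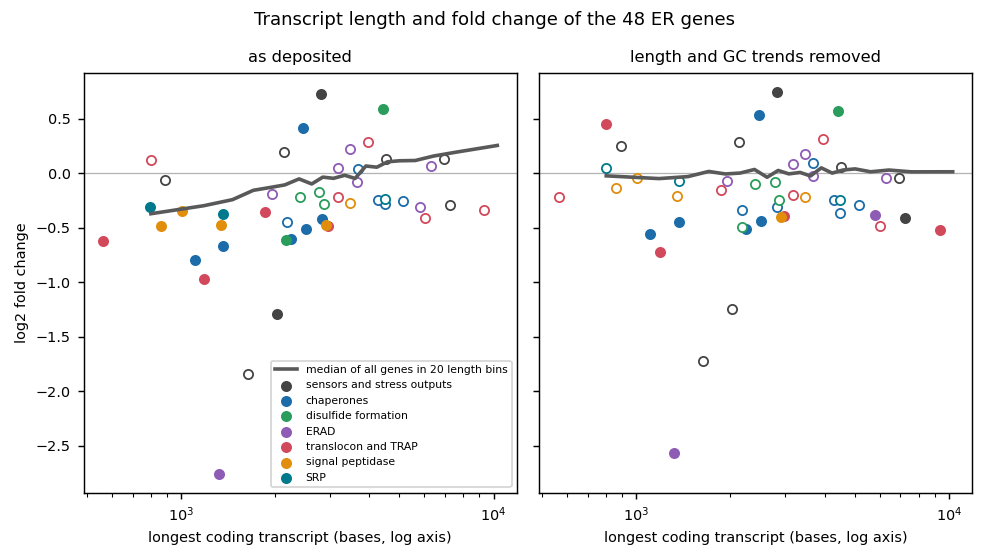
Length of the longest coding transcript (horizontal, log axis) against log2 fold change of the 48 members, as deposited (left) and with the length and GC trends taken out (right), filled where the adjusted p was below 0.05; the line joins medians of all protein-coding genes in 20 bins of length. The short members Derl3, Chac1 and Ssr2 lie far below the line, and of the 21 members filled at the left 11 are filled at the right, where 4 others are filled too.

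At the threshold, the last members inside were Trib3 (adjusted p = 0.0416), Sec61g (0.0459) and Srp14 (0.0472) and the first outside Calr (0.0550), Chac1 (0.0726), Ssr1 (0.0739) and Edem1 (0.0788) in the authors' deposited table.

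Another 125 genes of the pathway were in the table, of which 124 had an adjusted p. They were negative in 26 (20.97%) and positive in 2 (1.61%), with a median of -0.079, beside the 13.5% and 11.0% of all tested genes. With the length and GC trends taken out, 21 were negative and 5 positive and the median was -0.0065, beside 11.1% and 11.2% of all protein-coding genes. N-glycosylation and glycan trimming had 8 negative and 0 positive of 18, and a median of -0.31. Among them Dpagt1, the enzyme that starts the glycan precursor, had -0.85 ± 0.19 (SE; adjusted p = 0.000187) in the authors' deposited table. Of 11 oligosaccharyltransferase subunits, which attach the glycan, 4 were negative and 0 positive, and Rpn2, the most abundant, had -0.25 ± 0.15 without passing in the authors' deposited table.

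Further folding enzymes were negative in 7 and positive in 0 of 22, with the proline isomerase Fkbp2 at -0.79 ± 0.17 (adjusted p = 5.76e-05) and the most abundant, Tmx1, at -0.17 ± 0.14 without passing in the authors' deposited table. COPII export and retrieval genes were negative in 5 and positive in 1 of 21. The cargo receptor Lman1 had -0.68 ± 0.16 (adjusted p = 0.000321) and the exit site scaffold Sec16a 0.46 ± 0.12 (adjusted p = 0.00103), and the cargo receptor Surf4, the most abundant, -0.01 ± 0.11 in the authors' deposited table. With the length and GC trends taken out, Sec16a lost its call at 0.22 (adjusted p = 0.166 from the authors' deposited SE). Lman1 kept its call at -0.70 (adjusted p = 0.000206 from the authors' deposited SE). Further targeting and insertion factors were negative in 3 and positive in 0 of 23, among them Get4, of the tail-anchor pathway, at -0.77 ± 0.20 (adjusted p = 0.00134) in the authors' deposited table. Tram1, the translocating chain protein and the most abundant of them, had -0.04 ± 0.12 in the authors' deposited table.

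Further ERAD factors were negative in 1 and positive in 1 of 20, the extraction ATPase Vcp at -0.44 ± 0.17 (adjusted p = 0.0363) and the lectin Os9 at 0.36 ± 0.13 (adjusted p = 0.0246) in the authors' deposited table. Regulators of the unfolded protein response were negative in 1 and positive in 0 of 11 tested. That gene was Eif2s1, the translation factor subunit phosphorylated by PERK, at -0.58 ± 0.14 (adjusted p = 0.000561), and the most abundant, Tmbim6, had 0.02 ± 0.13 in the authors' deposited table. Targets of ATF4 and CHOP were negative in 1 and positive in 0 of 9, with Nupr1 at -1.42 ± 0.53 (adjusted p = 0.0345) and Atf3, the most abundant, at 0.48 ± 0.21 without passing in the authors' deposited table. Vcp (-0.41, adjusted p = 0.0544) and Nupr1 (-1.10, adjusted p = 0.127) lost their calls with the trends taken out, on the authors' deposited SE. Dpagt1, Fkbp2, Get4, Eif2s1 and Os9 kept theirs.

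**Figure D5:**
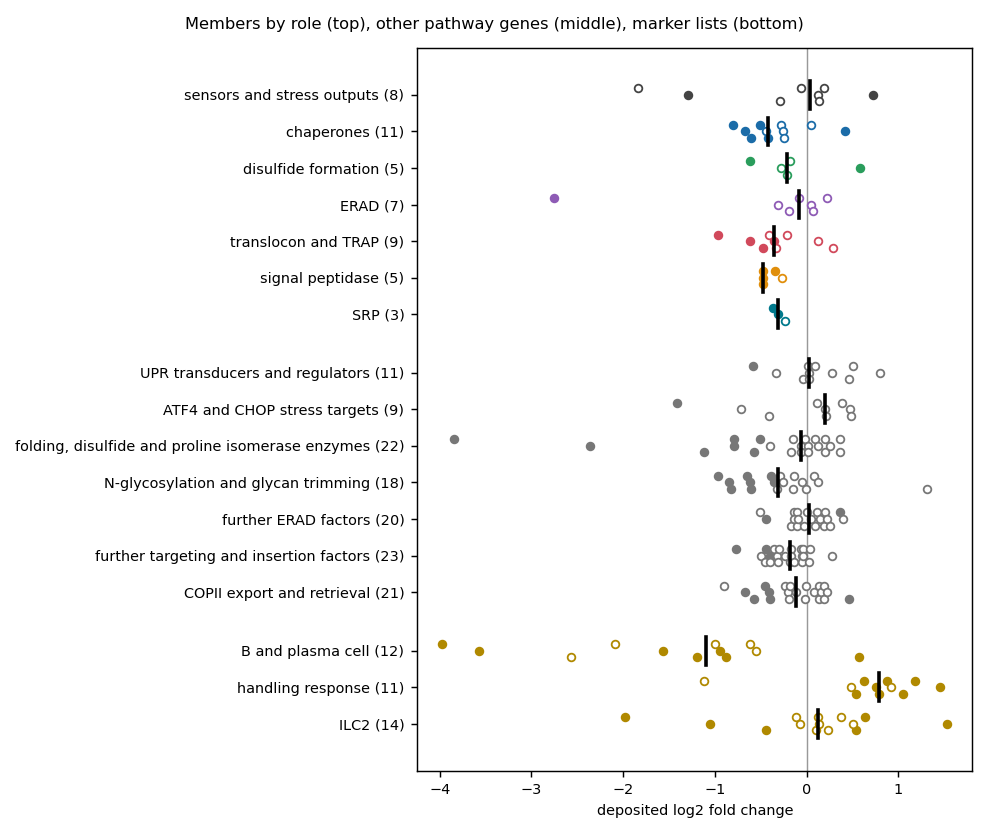
Deposited log2 fold change (horizontal axis) of the members by role, of the other pathway genes and of 3 marker lists, with the number of tested genes in brackets, filled points at an adjusted p below 0.05 and a bar at each median. The bars of the chaperones, translocon and signal peptidase lie at -0.42, -0.35 and -0.47, and those of the sensors and of the regulators of the unfolded protein response at 0.03 and 0.02.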

How the data were processed

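Per the labels, cDNA was made with the SMART-Seq HT kit, and the submitters' processing notes name HISAT2, Cufflinks and the mm10 build. Not given in the sources used here are their versions, the counting tool, the strand setting and the tool of the comparison. Per the file headers, the authors deposited a table of genes with the log2 fold change and its SE, the score of the test, the p-value raw and adjusted, and the mean normalized count, a signal over all libraries in their fit. The score equalled the fold change over its SE to within 2.41e-07, and the adjusted p a Benjamini-Hochberg adjustment to within 7.56e-07. Which libraries lie behind the fit is not stated, so that its p-values need not be those of a test of 3 pools against 3. The 12 per-sample columns matched no label and were not used, which replaced the planned count fit by the deposited comparison.

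Intervals are normal 95% intervals from the deposited SE, and precision is limited by that SE, since depth per sample was not used. The members, roles and lists were chosen with earlier results of these data known. Genes named are all called members, the most abundant and the largest in each role, in each other pathway list the most abundant and the smallest p in each direction, and in each marker list the most abundant and the smallest p. Others were named after their values were seen, as was the level of 1000 counts chosen. Lengths, GC content and positions came from GENCODE M21 (mm10), which held 99.27% of identifiers and all 48 members. Trends were removed by lowess (span 0.3) on length, then GC, and the test was recomputed with the deposited SE, in statsmodels 0.14.6, scipy 1.17.1, pandas 2.3.3 and Python 3.11.15, tested on simulated data. Of 40 members with a promoter, 37 had bases after the start site that lie in a transcript of the gene. The C-terminal retrieval signals planned for description were not analysed here.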

Additional observations from a re-analysis of the deposited data

How the results depend on the processing

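No paired analysis was possible because the columns carry no replicate numbers, and for the same reason other size factors, other count filters and leaving out a sample were not run. The members' median kept its sign in all alternatives, between -0.30 and -0.22, and 8 of the 21 called members kept their call under every alternative they entered. The members' negative calls fell from 18 to 10 and their positive calls from 3 to 1 at an adjusted p below 0.01 (9.0% and 6.79% of all tested genes), and the negative calls to 11 with the length and GC trends taken out. Of uncalled members, Ern1 (-0.043), Ddit3 (0.25) and Sel1l (-0.046) changed sign in that last setting, as did the called Srp14 (0.049). Among the other pathway genes, an adjusted p below 0.01 left 16 negative and 1 positive of the 26 and 2. Their positive calls, each followed by the share of all genes positive in that setting, were 11 at an adjusted p below 0.1 (13.9%), 1 when adjusted over every gene with a p-value (3.20%), 5 with a mean of at least 100 normalized counts (15.5%), 6 when recentred on the most abundant genes (12.4%), 5 with the trends removed (11.2%) and 5 with a mean of at least 1000, readjusted among those genes (18.2%). Fewer genes entered the adjustment under the minimum means, and 39444 in place of 14961 when every gene with a p-value did. The other thresholds were applied to the same adjusted p values. Recentring took the median of the most abundant 25% of tested genes, -0.037, from each fold change. The origin of the length trend was not tested. Depth limits Derl3, Chac1, Trib3 and Srp54a, with fewer than 100 normalized counts.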
